A study of Brassica napus with 9 samples.

Results

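The early-rising genes are the 92 genes of Brassica napus guard cells whose RNA stood highest over the mock-treated Control after 15 min of abscisic acid (ABA), judged by the replicate in which each gene rose least. Counts scaled to library size (CPM) were put on the log2 scale with a prior count of 2, and the ratio of the 15-min library to the Control library of the same replicate number was taken for each gene. Of 101040 annotated genes, 52881 had enough counts to be tested and 41649 of those had 30 or more counts in every Control library. The 100 genes with the largest lowest ratio were taken from these, and 8 of them were set aside because the rule named them, which left 92. The genes set aside include copies of the transcription factor genes ANAC072 and MYB44 and 1 copy of the phosphatase gene AHG3. The 15-min ratios chose the genes, so these ratios and the test results for 15 min against Control are given below as a description only.

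The study asked how the transcriptome of guard cells changes over time after exposure to ABA. Protoplasts of guard cells, prepared by digesting away the cell walls, came from leaves of the double-haploid line DH12075, and RNA was sequenced from 9 samples in 3 groups of 3. The groups were Control, which was given the ethanol solvent alone, and ABA15min and ABA60min, held in 10 µM ABA under light at room temperature for 15 and 60 min. Each sample pooled 3 to 5 protoplast preparations, and replicates 1, 2 and 3 each hold 1 sample of every group. All samples share the plant line, the blending and enzyme digestion that free the cells and a period of storage in the cold. No Control was matched to each exposure time, so changes with ABA cannot be told apart from changes with time in light at room temperature. In bulk RNA, fewer cells of a type and less RNA per cell also cannot be told apart.

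ABA is the hormone by which plants close their stomata in drought. It binds PYR/PYL/RCAR receptors, which then hold back clade A protein phosphatases of type 2C (PP2Cs). The PP2Cs otherwise silence the kinase OST1, and once OST1 is free it acts on ion channels of the guard cell membrane and on bZIP transcription factors of the ABF group, which raise the transcription of ABA-responsive genes. In Arabidopsis, genes for the PP2Cs themselves and for late embryogenesis abundant (LEA) proteins, which protect cells in drying, are among the genes known to be induced by ABA.

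The libraries held between 88051359 and 123968001 counts, and the 92 genes together took 0.176%, 0.180% and 0.140% of the counts in Control replicates 1, 2 and 3. They took 0.482%, 0.385% and 0.555% at 15 min and 1.11%, 0.891% and 1.10% at 60 min. The 15-min shares lie above the Control shares because the rule chose genes that were higher there. All 60-min shares lie above all 15-min shares, a step that the rule did not fix. Markers of guard cells were present in every library, the lowest being a copy of OST1 at 2.23 CPM. The summed CPM of the 7 marker genes for OST1, MPK12 and ALMT12 ran from 639 to 2417 at 60 min. It ran from 243 to 1079 at 15 min and from 227 to 838 in Control. The marker genes, with CAB1, are named in study lists of genes that changed in these samples, which favours a difference at 60 min. CAB1, a chlorophyll-binding protein gene used as the mesophyll marker, ran from 34.7 to 56.9 CPM at 60 min and from 19.8 to 43.0 CPM in Control, and its part in the results below was not tested.

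**Figure D1:**
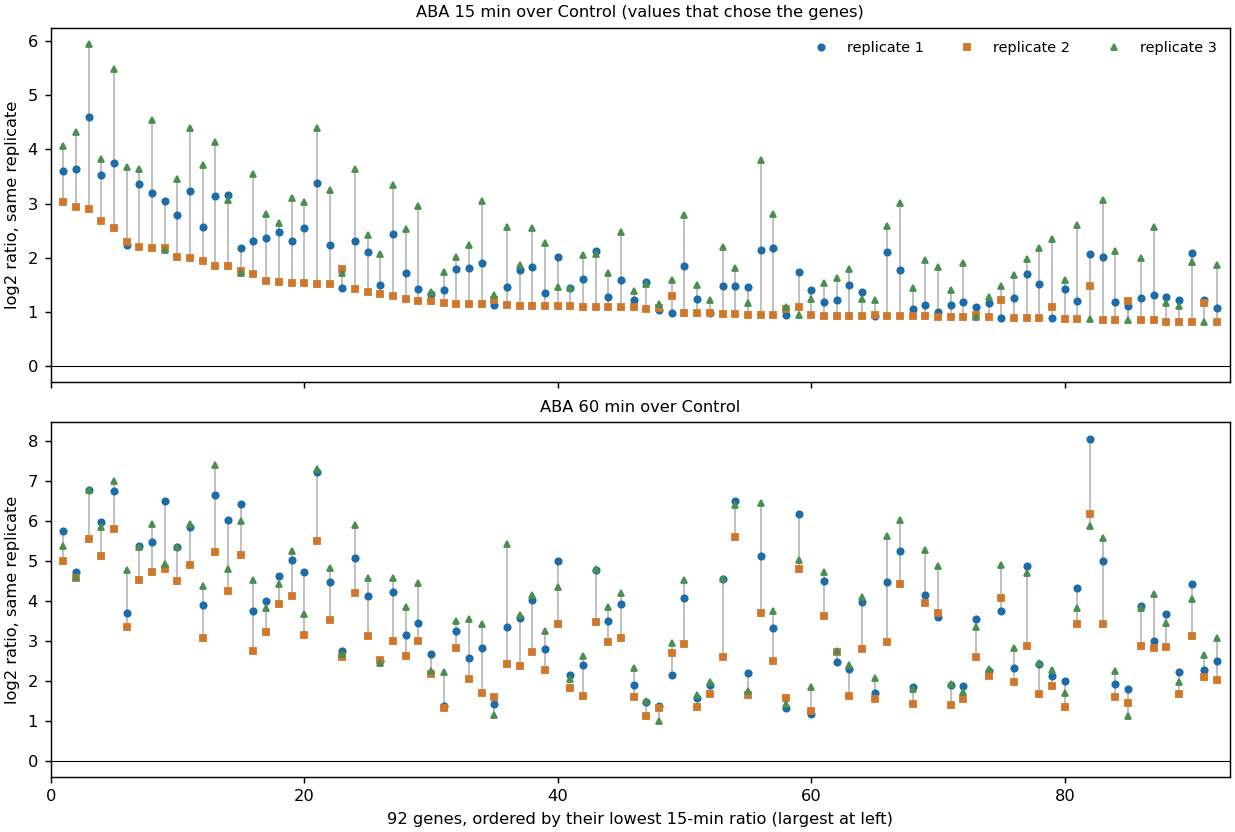
Log2 ratio of each ABA library to the Control library of the same replicate for the 92 genes, ordered by their lowest 15-min ratio, with grey bars from the lowest to the highest replicate. The upper panel holds the values that chose the genes, and in the lower panel every gene lies above 0 in all 3 replicates.

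At 15 min the fitted rise of the 92 genes over Control ran from 0.99 to 4.53 on the log2 scale with a median of 1.55, a 2.93-fold rise. Of the 92, 81 passed an adjusted p of 0.05 in edgeR's quasi-likelihood test, against 0.395% of all genes tested, and 0 were lower, against 0.0359%, since this contrast chose them. Without replicate 1, and likewise without a term for the replicate number, 5 of the 92 passed, and 5 of all 52881 genes tested were higher in each. The 15-min and Control libraries did not overlap for 77 genes, against 1.55% of all genes tested, which the rule also favoured. These counts at 15 min describe the choice of genes and are no evidence for a rise. The largest lowest ratio was 3.03, of BnaA05g08660D. Just inside the limit stood BnaA10g18420D and BnaC09g33480D, each with a lowest ratio of 0.81, and just outside it BnaA06g22540D with 0.81 and BnaA07g27120D with 0.80. The list therefore has no gap at its end, and genes just outside it had nearly the same ratios.

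What the rule did not fix is the course after 15 min. Between 15 and 60 min of ABA most of the 92 genes rose further. Of the 92, 81 rose after 15 min by the test at 60 min, against 14.2% of all genes tested, and 11 did not pass the test. By edgeR 0 were lower at 60 min, also at an unadjusted p under 0.05 and by DESeq2, against 9.45% of all genes tested. The median change of the 92 was 1.68 on the log2 scale, a 3.21-fold rise, and the median of all genes tested was -0.01. Since the genes were chosen for high values in the same 15-min libraries, an upward error there works against a rise in this comparison. The level at 60 min exceeded that at 15 min in 3 of 3 replicates for 85 genes, in 2 for 6 genes and in 1 for 1 gene. The share of all genes tested that rose in 3 of 3 replicates is not given here. The 60-min and 15-min libraries did not overlap for 67 genes, against 7.27% of all genes tested. In a model with no term for the replicate number, 21 of the 92 passed this test, all of them higher at 60 min. In that model 236 of all 52881 genes tested were higher.

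**Figure D2:**
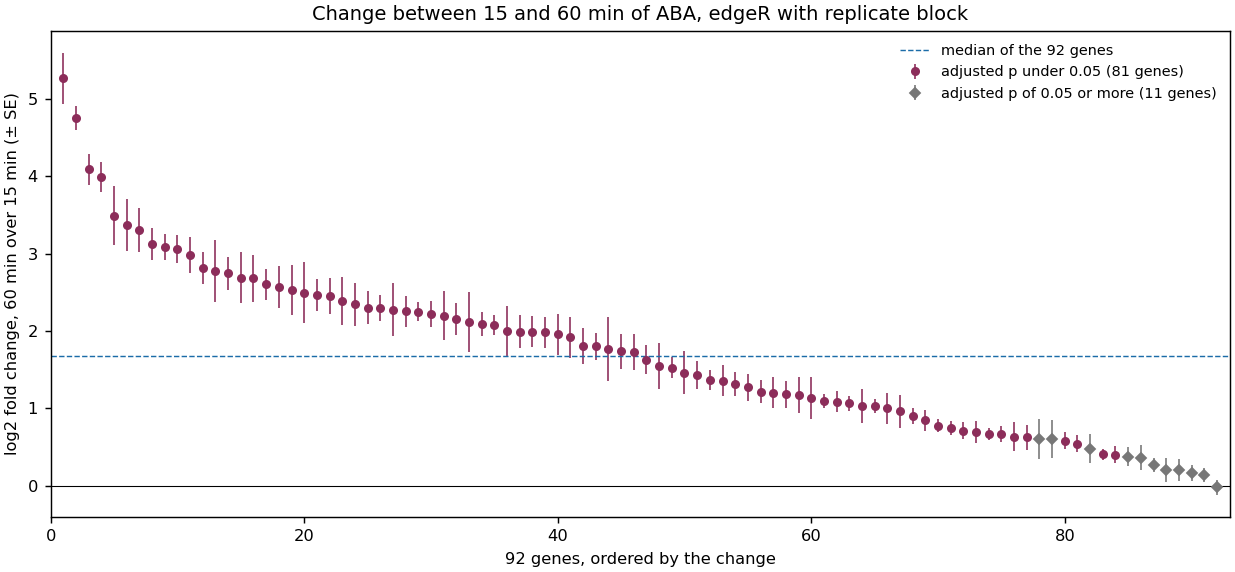
Log2 fold change of 60 min over 15 min of ABA for the 92 genes in descending order, with the standard error of each as a bar. The 81 genes that passed the test all lie above 0, and the 11 that did not reach at most 0.61.

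Against Control, all 92 genes were higher at 60 min, against 15.2% of all genes tested. The change ran from 1.24 to 6.64 on the log2 scale with a median of 3.60, a 12.2-fold rise, and 57 genes reached 3.00 or more. This comparison uses the same Control libraries as the rule, which favoured genes that were low there. The 60-min and Control libraries did not overlap for 91 of the 92, against 8.11% of all genes tested. The exception, BnaA10g18420D, is named here because its values were seen to overlap. It had 14.4, 5.0 and 3.00 CPM at 60 min, against 3.00, 1.17 and 0.466 CPM in Control, for replicates 1, 2 and 3. Every replicate rose, and the overlap comes from replicate 1 being high in both groups. Without the term for the replicate number, 79 of the 92 genes passed the test against Control, and 837 of all 52881 genes tested were higher.

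Of the 92 genes, 7 are named in the study's tables, and 85 are known here only by their identifiers. Of the 7, 5 code for PP2C phosphatases, the negative regulators that sit between the receptors and OST1 in ABA signaling. They are 2 copies of AHG3, 2 copies of AIP1 and 1 copy of HAI1, named after their Arabidopsis orthologs. All 5 were higher at 60 min than they were at 15 min. In the following, values of a group are given in the order of replicates 1, 2 and 3.

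AHG3, known in Arabidopsis as a phosphatase that restrains ABA responses in germinating seeds, rose early and then kept rising. BnaA05g27660D on chromosome A05 had 10.1, 17.0 and 7.91 CPM in Control, 93.4, 76.9 and 185 CPM at 15 min and 454, 452 and 482 CPM at 60 min. The other copy, BnaC05g41830D on chromosome C05, had 7.11, 13.5 and 7.82 CPM in Control, 66.7, 53.8 and 165 CPM at 15 min and 413, 406 and 473 CPM at 60 min. In both copies the 15-min library of replicate 3 stood far above the other two, while the 60-min libraries lay close together, and no 2 groups overlapped. From 15 to 60 min BnaA05g27660D rose by 2.00 ± 0.32 on the log2 scale (SE, n = 3 each, edgeR adjusted p = 0.00185), and BnaC05g41830D by 2.28 ± 0.34 (adjusted p = 0.00119). Without replicate 1 the first of these no longer passed the test (adjusted p = 0.0630), and without the replicate term neither did (adjusted p = 0.0842 and 0.0915).

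AIP1 and HAI1 belong to the same clade and are also induced by ABA in Arabidopsis. The AIP1 copy BnaA10g04840D had 1.5, 6.12 and 1.44 CPM in Control, 6.14, 13.2 and 4.0 CPM at 15 min and 48.2, 66.0 and 29.5 CPM at 60 min. The other copy, BnaA09g49440D, had 1.34, 2.61 and 1.04 CPM in Control, 3.48, 4.99 and 2.48 CPM at 15 min and 21.3, 18.1 and 18.2 CPM at 60 min. Replicate 2 was the highest library of BnaA10g04840D in every group, and in both copies the 15-min and Control libraries overlapped. From 15 to 60 min it rose by 2.75 ± 0.21 on the log2 scale (SE, n = 3 each, edgeR adjusted p = 4.09e-05, and 0.186 without the replicate term), and BnaA09g49440D by 2.47 ± 0.21 (adjusted p = 5.57e-05). The HAI1 copy BnaA10g12140D had 2.95, 5.16 and 1.65 CPM in Control, 10.2, 9.83 and 13.4 CPM at 15 min and 113, 112 and 109 CPM at 60 min. Its rise after 15 min was 3.30 ± 0.29 on the log2 scale (adjusted p = 6.37e-05), and its 3 libraries of 60 min differed by less than those of either other group.

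The remaining copies of these phosphatases show how near the limit some genes lay. The HAI1 copy BnaC09g34350D rose by 1.26 at 15 min and 4.63 at 60 min on the log2 scale against Control, and its lowest 15-min ratio placed it outside the first 100. The AIP1 copy BnaC05g05180D had 32, 61 and 17 counts in Control, under the minimum of 30 in replicate 3, and 2238, 3208 and 2895 counts at 60 min. The study's list of ABA signaling genes, which it picked for large changes in these samples, holds 19 PP2C genes. All 19 were higher at 60 min than in Control, with a median change of 2.12 on the log2 scale, and 18 were higher at 60 min than they were at 15 min. Of the same 19 genes, 5 passed the test at 15 min, namely 3 of AHG3, 1 of AIP1 and 1 of HAI1, while 16 had an unadjusted p under 0.05 and 10 passed by DESeq2. The 4 copies of ABI1 and the 2 copies of ABI2, the phosphatases first found through ABA-insensitive mutants of Arabidopsis, had median changes of 0.42 and 0.34 at 15 min on the log2 scale. Of these 6 copies, 0 passed edgeR's test at 15 min, while 6 had an unadjusted p under 0.05 and 2 passed by DESeq2. The rule chose the early-rising copies by their 15-min ratios, so the 15-min counts of phosphatase genes are a description only.

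The other roles in the study's list have no gene among the 92, although 85 of the 92 have no name here and could not be assigned a role. Of the 18 receptor genes in the study's list, 2 were lower at 15 min, and 17 were lower and 1 was higher at 60 min than in Control, with median changes of -0.61 and -1.93 on the log2 scale. Of 20 transcription factor genes, 7 were higher at 15 min and 20 at 60 min, with medians of 0.57 and 2.20, and those with ratios high enough for the early list are among the genes the rule set aside. Of 9 kinase genes 8 were higher and 1 was lower at 60 min, with medians of 0.22 at 15 min and 1.21 at 60 min. The 7 transport genes and the 4 genes of ABA synthesis and breakdown were all higher at 60 min, with medians at 15 min of 0.30 and 0.32. A second list, of 10 orthologs of the ABF factors, had 9 genes higher at 60 min, and its median was 0.13 at 15 min and 1.59 at 60 min. The first list was picked for its change in these samples, so its directions at 60 min are not independent evidence. The ABF orthologs were not picked by their own change, but by binding sites enriched in promoters of genes that rose in these samples. They also share genes with the first list, so they are not independent of these data either.

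The 2 remaining named genes are orthologs of AT3G15670, which codes for a LEA family protein in Arabidopsis. Both were low at 15 min and rose more after 15 min than nearly all other early-rising genes. BnaC05g37670D had 0.628, 1.75 and 1.21 CPM in Control, 2.70, 4.94 and 2.22 CPM at 15 min and 173, 127 and 72.3 CPM at 60 min. BnaA05g23860D had 1.30, 3.09 and 1.72 CPM in Control, 4.39, 6.66 and 3.32 CPM at 15 min and 94.6, 86.7 and 56.8 CPM at 60 min. In both genes the 60-min libraries lay far above all others, with replicate 3 the lowest of them. BnaC05g37670D rose 38.5-fold after 15 min, by 5.27 ± 0.33 on the log2 scale (SE, n = 3 each, edgeR adjusted p = 2.01e-05), the largest such change of the 92 genes. BnaA05g23860D rose 17.0-fold, by 4.09 ± 0.20 (adjusted p = 9.73e-06). The family has 5 genes in the study's table, and the other 3 had at most 11 counts in any library and were not tested.

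**Figure D3:**
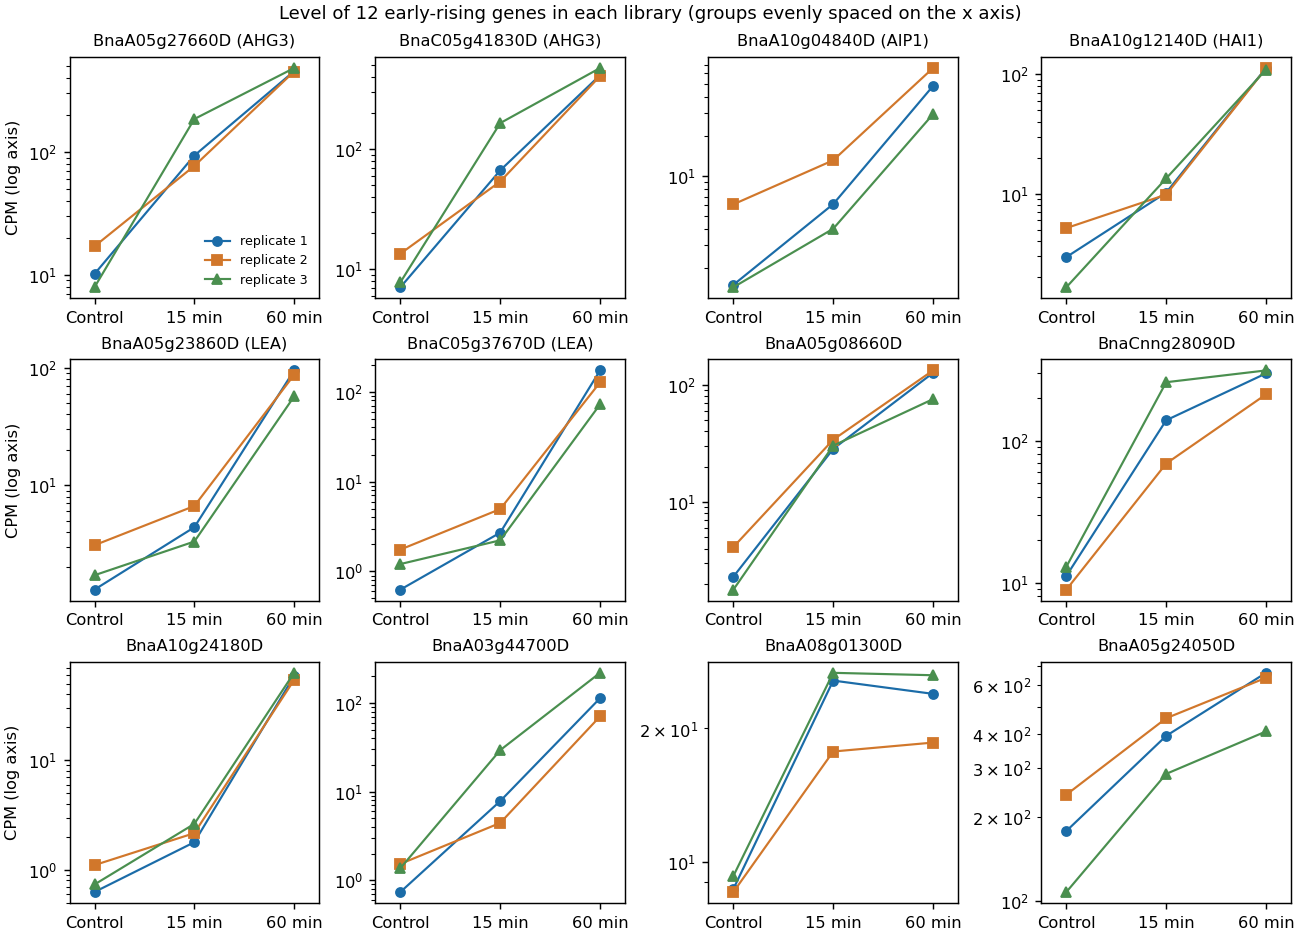
CPM on a log axis in Control, at 15 min and at 60 min for 12 of the 92 genes, with a line for each replicate. The LEA genes and BnaA10g24180D climb mainly after 15 min, BnaCnng28090D mainly before, and BnaA08g01300D stays between 17.7 and 26.7 CPM from 15 to 60 min.

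Among the genes without a name, BnaA05g08660D led the list at 15 min. It had 2.31, 4.14 and 1.80 CPM in Control, 28.3, 34.0 and 30.2 CPM at 15 min and 126, 132 and 75.2 CPM at 60 min. The 15-min libraries lay within a narrow range and no 2 groups overlapped. From 15 to 60 min it rose by 1.80 ± 0.17 on the log2 scale (SE, n = 3 each, edgeR adjusted p = 0.000106, and 0.0605 without the replicate term). BnaC04g09800D had 2.02, 3.56 and 2.06 CPM in Control, 23.5, 22.8 and 29.2 CPM at 15 min and 128, 125 and 119 CPM at 60 min. BnaC02g16130D had 2.06, 3.67 and 2.08 CPM in Control, 21.2, 16.9 and 26.1 CPM at 15 min and 85.6, 84.5 and 85.4 CPM at 60 min. BnaA08g09740D had 4.77, 6.10 and 3.97 CPM in Control, 33.0, 24.7 and 43.6 CPM at 15 min and 195, 139 and 163 CPM at 60 min. These 3 genes shared a Control that was highest in replicate 2 and groups that did not overlap. Their rises after 15 min were 2.30 ± 0.17, 1.99 ± 0.20 and 2.30 ± 0.21 on the log2 scale (adjusted p = 3.43e-05, 0.000131 and 8.30e-05).

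A further set of the leading genes was uneven between replicates at 15 min. BnaCnng28090D had 11.2, 8.94 and 13.0 CPM in Control, 139, 69.1 and 258 CPM at 15 min and 298, 212 and 313 CPM at 60 min. BnaA06g06370D had 2.06, 3.74 and 2.89 CPM in Control, 50.5, 28.1 and 178 CPM at 15 min and 227, 176 and 318 CPM at 60 min. BnaAnng23920D had 1.31, 2.57 and 1.09 CPM in Control, 17.7, 15.1 and 49.5 CPM at 15 min and 142, 145 and 142 CPM at 60 min. In each of the 3 genes the 15-min library of replicate 3 was the highest and that of replicate 2 the lowest, and in the first 2 of them the 60-min and 15-min groups overlapped. After 15 min they rose by 0.96 ± 0.21, 1.77 ± 0.41 and 2.50 ± 0.39 on the log2 scale (SE, n = 3 each, edgeR adjusted p = 0.00971, 0.0114 and 0.00152). None of the 3 passed without replicate 1 (adjusted p = 0.142, 0.165 and 0.0612) or without the replicate term (adjusted p = 0.703, 0.526 and 0.0949).

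In BnaC05g03130D and BnaAnng12350D another replicate stood highest. BnaC05g03130D had 0.967, 4.78 and 2.36 CPM in Control, 8.12, 21.9 and 10.5 CPM at 15 min and 89.0, 135 and 72.1 CPM at 60 min. BnaAnng12350D had 0.689, 3.33 and 1.27 CPM in Control, 3.20, 11.3 and 4.22 CPM at 15 min and 60.8, 119 and 83.0 CPM at 60 min. Replicate 2 was the highest in every group for both. From 15 to 60 min they rose by 2.98 ± 0.23 and 3.99 ± 0.20 on the log2 scale (SE, n = 3 each, edgeR adjusted p = 4.43e-05 and 9.73e-06, and 0.0968 and 0.0609 without the replicate term).

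BnaA10g24180D and BnaA03g44700D complete the 5 genes with the largest change after 15 min, beside BnaAnng12350D and the LEA genes. BnaA10g24180D had 0.628, 1.10 and 0.735 CPM in Control, 1.79, 2.16 and 2.63 CPM at 15 min and 58.9, 54.3 and 63.1 CPM at 60 min. Its 3 libraries of 60 min agreed closely, and it rose 27.0-fold after 15 min, by 4.75 ± 0.16 on the log2 scale (SE, n = 3 each, edgeR adjusted p = 1.15e-06). BnaA03g44700D had 0.741, 1.54 and 1.38 CPM in Control, 7.84, 4.45 and 29.4 CPM at 15 min and 113, 70.6 and 219 CPM at 60 min. Replicate 3 stood above the others at both times of exposure, and the gene rose by 3.49 ± 0.37 after 15 min (adjusted p = 0.000182, and 0.126 without the replicate term).

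At the other end, 11 genes showed changes from 15 to 60 min of -0.02 to 0.61 on the log2 scale that did not pass the test. BnaA08g01300D had 8.68, 8.55 and 9.29 CPM in Control, 25.7, 17.7 and 26.7 CPM at 15 min and 23.9, 18.6 and 26.4 CPM at 60 min. Its 60-min and 15-min libraries covered nearly the same range, both far above Control. The change was -0.02 ± 0.09 on the log2 scale (SE, n = 3 each, edgeR adjusted p = 0.904). When libraries were scaled by their total counts alone, the change was -0.28 and passed the test (adjusted p = 0.0301), and without replicate 1 it was 0.02 (adjusted p = 0.938). BnaA05g24390D had 94.7, 80.0 and 78.9 CPM in Control, 196, 170 and 176 CPM at 15 min and 244, 201 and 158 CPM at 60 min. BnaC03g39000D had 51.3, 31.2 and 43.4 CPM in Control, 112, 72.9 and 108 CPM at 15 min and 137, 94.9 and 94.9 CPM at 60 min. Both rose in replicates 1 and 2 after 15 min and were lower at 60 min in replicate 3, and their changes were 0.14 ± 0.09 and 0.16 ± 0.10 (adjusted p = 0.317 and 0.286). Without replicate 3 both passed as higher at 60 min, by 0.27 and 0.33 (adjusted p = 0.0207 and 0.00963).

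BnaCnng63180D and BnaAnng23490D are the other genes among the 5 with the smallest change. BnaCnng63180D had 17.7, 8.79 and 9.77 CPM in Control, 47.0, 19.8 and 32.8 CPM at 15 min and 45.8, 21.8 and 45.3 CPM at 60 min, with replicate 2 the lowest throughout. BnaAnng23490D had 1.30, 1.57 and 0.604 CPM in Control, 3.49, 3.04 and 1.46 CPM at 15 min and 2.94, 3.73 and 2.20 CPM at 60 min. Both changes after 15 min were 0.20 on the log2 scale, with standard errors of 0.14 and 0.16 (edgeR adjusted p = 0.357 and 0.404). The remaining 6 genes were BnaC05g38410D, BnaC06g30030D, BnaAnng20870D, BnaA08g13840D, BnaA06g24540D and BnaC08g12910D, with changes of 0.27, 0.38, 0.37, 0.48, 0.61 and 0.61. A p that misses the threshold does not show that these genes stood still, and all 6 passed as higher at 60 min when replicate 3 was left out.

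Next come the 5 early-rising genes with the highest CPM in Control. BnaA05g24050D had 178, 241 and 107 CPM in Control, 393, 455 and 287 CPM at 15 min and 663, 636 and 408 CPM at 60 min. BnaC07g29470D had 143, 243 and 102 CPM in Control, 332, 428 and 222 CPM at 15 min and 663, 776 and 400.2 CPM at 60 min. BnaC05g38150D had 121, 155 and 72.9 CPM in Control, 253, 294 and 199 CPM at 15 min and 434, 417 and 255 CPM at 60 min. In these 3 genes replicate 3 was the lowest library of every group and each replicate rose at each step. The 60-min and 15-min groups overlapped in all 3 genes, and the 15-min and Control groups in BnaC07g29470D. Their changes after 15 min were 0.58 ± 0.11, 0.90 ± 0.10 and 0.55 ± 0.11 on the log2 scale (SE, n = 3 each, edgeR adjusted p = 0.00390, 0.000200 and 0.00527). Without the replicate term none of the 3 passed (adjusted p = 0.777, 0.586 and 0.770), and without replicate 1 BnaA05g24050D and BnaC05g38150D did not (adjusted p = 0.0951 and 0.117). BnaA01g11280D had 137, 157 and 70.3 CPM in Control, 452, 373 and 409 CPM at 15 min and 1201, 969 and 1011 CPM at 60 min. It rose by 1.36 ± 0.20 after 15 min (adjusted p = 0.00111, and 0.120 without the replicate term), and no 2 of its groups overlapped. The fifth, BnaA05g24390D, is described among the genes that changed little after 15 min.

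The pace of the rise differed among the 92 genes. For each gene and replicate the gain in CPM per min was taken from Control to 15 min and from 15 to 60 min, as a description, since the first interval holds the values that chose the genes. The gain per min was larger after 15 min in 3 of 3 replicates for 30 genes, smaller in 3 of 3 for 37 genes and mixed for 25. The split itself favours a larger later change in the first set. The 30 genes had a median change after 15 min of 2.69 on the log2 scale and the 37 genes one of 0.67, while their median changes at 15 min were 1.48 and 1.33. The gain after 15 min divided by that before ran from -0.0092 for BnaA08g01300D to 19.2 for BnaC05g37670D, with a median of 0.923. Both LEA genes, both AIP1 genes and the HAI1 gene were among the 30, and AHG3 was mixed, with ratios of 1.07 for BnaA05g27660D and 1.31 for BnaC05g41830D. BnaCnng28090D, with a ratio of 0.274, and BnaA01g11280D, with 0.746, were among the 37. A level that is reached between the 2 times of sampling is not seen here.

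**Figure D4:**
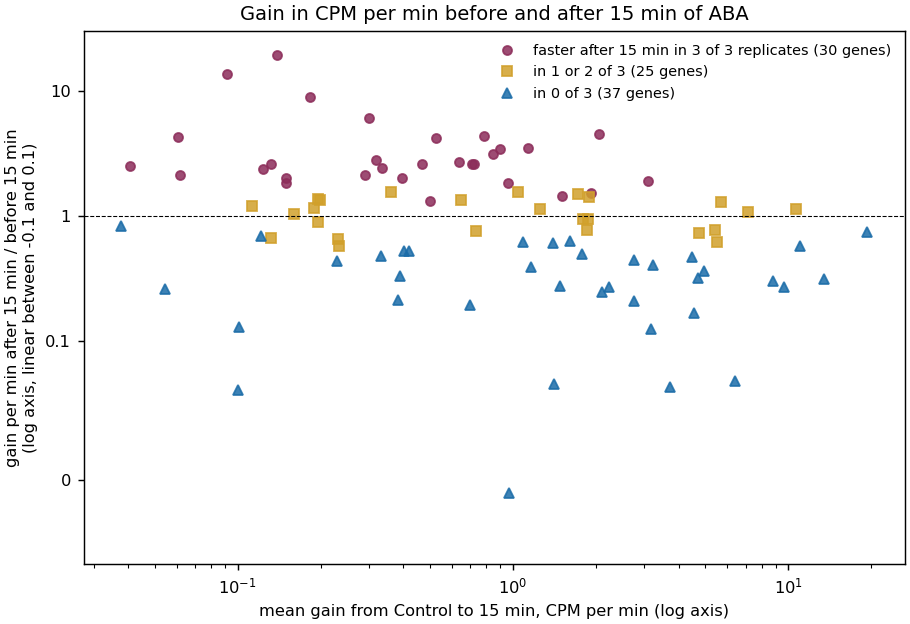
Gain in CPM per min after 15 min of ABA divided by the gain before 15 min, against the mean gain before 15 min, for the 92 genes. Genes above the dashed line at 1 gained faster after 15 min, and 30 of them did so in 3 of 3 replicates.

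Replicates differed in the size of the early rise. The median 15-min ratio of the 92 genes was 1.54, 1.10 and 2.06 on the log2 scale in replicates 1, 2 and 3, and it was the lowest in replicate 2 for 76 genes and the highest in replicate 3 for 74. At 60 min the median ratios to Control were 3.69, 2.84 and 3.95, again the lowest in replicate 2 for 81 genes. Between 15 and 60 min the medians were 1.84, 1.66 and 1.37, and replicate 3 was the lowest for 56 genes. All medians over the genes tested lay between -0.02 and 0.01 for these ratios. Among all genes tested, replicate 2 was the lowest for 36.4% at 15 min and for 36.9% at 60 min. Between 15 and 60 min replicate 3 was the lowest for 36.9% of them. The Control value of a replicate enters its ratios, so a high Control lowers them by construction. For 63 of the 92 genes the Control library of replicate 2 was the highest of the 3, against 37.7% of the 41649 genes that could have been chosen. The median of the 92 stood at 135% of the mean of its Control libraries there, against 90.0% in replicate 1 and 73.0% in replicate 3. Over the 41649 genes the median in Control replicate 2 was 99.1%. The same medians of the 92 genes were 90.6% in replicate 2, 92.1% in replicate 1 and 107% in replicate 3 at 15 min, and 94.0%, 108% and 96.8% in the same order at 60 min. The median coefficient of variation of the 92 genes was 38.1% in Control, 28.3% at 15 min and 21.8% at 60 min. Their median level rose from 3.15 CPM in Control to 79.1 CPM at 60 min. The same coefficient is not given here for all genes tested, so this fall has no baseline.

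The ALMT12 and MPK12 marker genes differed between replicates too, and the OST1 copies differed little. ALMT12, an anion channel gene of guard cells, had 44.3, 37.9 and 166 CPM in Control for BnaA03g43490D, and CAB1 had 42.7, 43.0 and 19.8 CPM. Replicate 3 was thus highest in the channel gene and lowest in CAB1. CAB1 is a single gene, and chlorophyll-binding proteins are also made in guard cell chloroplasts, so it does not measure mesophyll cells alone. The MPK12 copy BnaA05g05340D had 55.8, 28.2 and 157 CPM in Control. The OST1 copies had 2.23, 2.42 and 2.62 CPM and 3.06, 3.78 and 3.91 CPM there. The part of these differences in the unequal rise of the 92 genes was not tested.

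**Figure D5:**
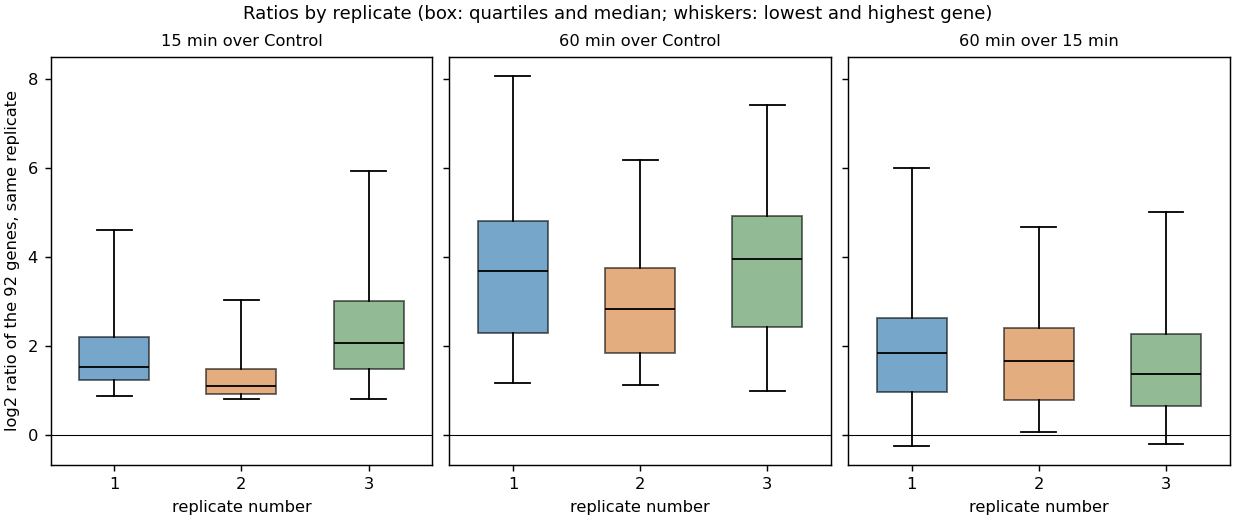
Log2 ratios within each replicate for the 92 genes, with boxes from the lower to the upper quartile, a line at the median and whiskers to the lowest and highest gene. Replicate 2 has the lowest median for both ratios to Control, 1.10 at 15 min and 2.84 at 60 min.

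The 92 genes were spread over both subgenomes of B. napus, an allotetraploid that joins the A genome of B. rapa and the C genome of B. oleracea. There were 50 genes of the A subgenome and 42 of the C subgenome, against 20051 and 21497 of the 41649 genes that could have been chosen. The median change after 15 min was 1.76 for the A genes and 1.59 for the C genes on the log2 scale, and 44 of 50 and 37 of 42 passed the test. Chromosomes A06 and C05 held 8 genes each and A05 and A10 held 7 each, while 8 genes lay on sequences not placed on a numbered chromosome.

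Identifiers follow the order of genes along a chromosome, and a few of the 92 genes lie side by side. BnaC06g05910D, BnaC06g05920D and BnaC06g05930D are 3 genes in a row, and these neighbours are named for their position after their values were known. BnaC06g05930D had 1.46, 1.79 and 0.458 CPM in Control, 6.95, 8.79 and 6.08 CPM at 15 min and 19.3, 18.5 and 12.9 CPM at 60 min. BnaC06g05910D had 5.85, 11.1 and 2.92 CPM in Control, 29.1, 36.1 and 34.6 CPM at 15 min and 78.8, 74.4 and 67.2 CPM at 60 min. The 3 genes had the lowest Control in replicate 3 and rose after 15 min by 1.14 ± 0.27, 1.03 ± 0.21 and 1.21 ± 0.20 on the log2 scale, in the order of their identifiers (SE, n = 3 each, edgeR adjusted p = 0.0133, 0.00679 and 0.00185). Without replicate 1 BnaC06g05930D did not pass (adjusted p = 0.0644), nor did it without the replicate term (adjusted p = 0.385). The tested gene that follows them, BnaC06g05940D, had at most 28 counts in any library, and its change at 60 min against Control was 0.20 ± 0.72 (adjusted p = 0.876). BnaA06g24530D and BnaA06g24540D form a pair, with changes after 15 min of 0.63 ± 0.19 (adjusted p = 0.0355) and 0.61 ± 0.25 (adjusted p = 0.110). Reads that fit more than 1 place were not counted, so values of adjacent copies with shared sequence would be uncertain.

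Genes next to the 92, with the next lower or higher identifier on the same chromosome, also tended upward at 60 min. Of 107 such neighbours that were tested and are not themselves early-rising, 44 were higher at 60 min than in Control (41.1%) and 1 was lower. Among 35369 neighbours of the other genes with 30 or more counts in each Control, 15.7% were higher and 10.3% lower. A further set held 1511 neighbours of other genes that rose at 60 min by at least as much as the smallest rise of the 92. Of these neighbours, 31.0% were higher and 5.36% lower. Those other genes needed no minimum count in Control. Neighbours that were themselves among them were kept, while early-rising neighbours of the 92 were left out, so the sets are not fully alike. The median change of the 107 was 0.25 at 60 min and 0.03 at 15 min on the log2 scale, from a median of 3.23 CPM in Control. With libraries scaled by total count, which moves the median of all genes at 60 min to -0.32, the median of the 107 was -0.05, with 26.2% higher and 15.9% lower, against 8.02% and 44.5% of the 35369. The distance between neighbours and the strand of each gene were not used here.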

How the data were processed

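RNA from guard cell protoplasts was measured by RNA-seq in 9 samples. The authors used TopHat2, which the submitters' processing notes also name, to align single-end reads to the Darmor genome, and HTSeq to count the reads that fell unambiguously in a gene. The deposited table holds those raw counts, and the release of the annotation and the strand setting are not given in the sources used here. Near-identical copies, which lose reads that fit more than 1 place, and overlapping or antisense genes are therefore uncertain.

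The tables were analysed with edgeR 4.0.16 in R 4.3.3. Genes were kept with filterByExpr, libraries were scaled by TMM, and the quasi-likelihood test was run on all 52881 genes and 9 samples with a term for the group and the replicate number as a block. The p-values were adjusted by Benjamini-Hochberg over all genes tested, with a threshold of 0.05, and standard errors were taken as the size of the log2 fold change over the square root of F. Levels are given as CPM after TMM scaling of each library. The block follows the study's methods and the replicate numbers in the labels. Deviations from group means correlated from 0.715 to 0.851 between samples of the same number and from -0.588 to -0.156 between other samples. Such deviations cancel within a group, so positive values for matched samples make the others negative on average. No 2 libraries of a group were near copies, and the steps were tested on simulated data.

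The 92 genes, the gene lists and the tests were chosen with earlier results of these data known. Genes named with values are the 10 with the largest lowest 15-min ratio, the 5 with the highest CPM in Control, the 5 with the largest and the 5 with the smallest change from 15 to 60 min, genes named in the study's tables and genes beside the limit of the rule. No set test was run, and levels are not compared between genes because gene lengths were not used here. Alternatives were DESeq2 1.42.0, RLE scaling, scaling by total count, no filter, a mean of at least 50 counts, no replicate block, a fit of the groups compared only, leaving out each replicate, and other settings of the rule. Libraries held between 88051359 and 123968001 counts, and 25 of the 92 genes had under 100 counts in a Control library, where relative counting error is largest. The symbols of 3 of the 92 genes were found in the RefSeq table of another assembly, which was used for nothing else.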

Additional observations from a re-analysis of the deposited data

Results flagged for a closer look

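For 81 of the 92 genes the change from Control differed between the 2 times of exposure, being larger at 60 min than at 15 min by edgeR's test of 60 min against 15 min, against 14.2% of all genes tested. The difference was in the same direction in 3 of 3 replicates for 85 of the 92 genes, and the share of all genes that did so is not given here. The 2 times are compared through the same Control libraries, so Control largely drops out of the difference. The error of the test was still estimated from all 9 samples. In a fit of the 60-min and 15-min libraries alone, 84 of the 92 genes were higher at 60 min, against 6440 of all 52881 genes tested.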

How the results depend on the processing

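Limits come first from 3 replicates and from the replicate term. With no replicate block, 21 of the 92 genes were higher at 60 min than they were at 15 min, and the genes called overall were 5 at 15 min against Control, 895 at 60 min against Control and 243 at 60 min against 15 min, in place of 228, 13616 and 12516. The numbers pair the samples, so the fit with the block is the one reported. Scaling by total count moved the median of all genes to -0.32 at 60 min against Control and to -0.27 at 60 min against 15 min. It gave 27370 and 22807 genes called, of which 15.2% and 16.4% were higher, in place of 59.0% and 60.1%. Under it 77 of the 92 genes were higher and 1 lower at 60 min than at 15 min, with a median change of 1.42, and the changes of BnaCnng63180D, BnaC03g39000D, BnaA05g24390D and BnaAnng23490D turned to -0.058, -0.088, -0.11 and -0.051, none of which passed the test.

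At 15 min against Control, DESeq2 called 490 genes, no filter on low counts 584 and a fit of the compared groups alone 900. The count of the 92 genes higher at 60 min than they were at 15 min was 81 to 85 in several alternatives. These were DESeq2, RLE scaling, no filter, a mean of at least 50 counts and the compared groups alone. In them the genes higher overall ranged from 6440 with the compared groups alone to 7607 with RLE scaling. Leaving out a replicate gave 61 of the 92 without replicate 1 to 89 without replicate 3. Of all 52881 genes tested, 2790 and 6490 were higher in these fits, in that order. Over the fits that left out a replicate, the median change of the 92 from 15 to 60 min was 1.55 to 1.79. That from Control to 60 min was 3.25 to 4.04. Genes called then ranged from 5 to 279 at 15 min, from 5869 to 10808 at 60 min against Control and from 3694 to 10836 at 60 min against 15 min, each lowest without replicate 1. The change of BnaA08g01300D from 15 to 60 min was -0.067 without replicate 2 and 0.022 without replicate 1. The 92 genes were higher than Control at 60 min in every alternative except the one with no replicate block, where 79 passed. In the others the genes higher overall ranged from 4148 with total count scaling to 8125 with no filter. Of the 92, other settings of the rule kept 67 to 91, the fewest with 100 or more counts in each Control, and 73 without replicate 2. The fit by total count for the neighbours, the lists and the gains per min was chosen after seeing the data, and under it 26 genes gained faster and 41 slower after 15 min in 3 of 3 replicates, in place of 30 and 37.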
